A study of Mus musculus with 4 samples.

Results

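The transcription regulators that commit an airway progenitor to the multiciliated fate were examined in fetal mouse lungs whose epithelium lost 1 or both copies of *Stk11*, which encodes the kinase LKB1. The genes were chosen by symbol, from the known order of the program, and all 10 of them (*Gm6320*, *E2f4*, *E2f5*, *Ccno*, *Trp73*, *Foxn4*, *Myb*, *Foxj1*, *Rfx2* and *Rfx3*) were among the 22556 genes of the deposited table. *Gm6320* is the older symbol of *Mcidas*, which encodes Multicilin. RNA was sequenced from whole lungs at embryonic day 16.5, with 2 libraries of each genotype. Control embryos carried Shh-Cre and 1 floxed and 1 intact *Stk11* allele (Shh-Cre; Stk11F/+). Shh-Stk11 embryos carried Shh-Cre and 2 floxed alleles (Shh-Cre; Stk11F/F), so both genotypes had the driver and at least 1 floxed allele. Shh-Cre acts in the endoderm that gives rise to lung epithelium, and mesenchyme, vessels and blood are not its targets. The labels give the strain as C57BL/6, and the methods of the study describe mixed backgrounds.

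Multiciliated cells leave the cell cycle and then build many centrioles, each of which carries a motile cilium that moves mucus along the airway. Multicilin, which does not bind DNA by itself, starts this step in a complex with E2F4 or E2F5 and their DP partner. The genes it switches on include the regulators of centriole amplification and the transcription factors MYB, p73 and FOXJ1, and FOXJ1 then works with RFX factors on the genes of the motile axoneme.

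Values are in FPKM, read fragments scaled to transcript length and to the mapped reads of the library, so levels can be set side by side between genes as well as between libraries. Fold changes in log2 were computed after adding 0.1 to each FPKM, which makes those of weakly expressed genes smaller, and their error is the standard error (SE) of limma. The low values of the table corresponded to an estimated 30700000 to 37800000 reads per library. The weakest value of any regulator, that of *Foxn4* in Shh-Stk11 2, rested on about 39.9 estimated reads, and that of *Foxj1* in Control 1 on about 1372. *Stk11* itself was at 44.0 and 45.5 FPKM in Control 1 and 2 and at 29.5 and 25.95 FPKM in Shh-Stk11 1 and 2 (limma log2 fold change -0.69, SE 0.125, adjusted p 0.0499), and its adjusted p in limma was 0.113 to 0.183 when any 1 library was left out. Shh-Stk11 2 differed from the other libraries in sex, with the Y-linked gene *Ddx3y* at 23.5 FPKM against at most 0.0285 FPKM, and results are also given without it where a call depends on it.

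Promoter sequences were taken from RefSeq (GRCm38.p6), which gave 8 windows of 300 bases, 250 before and 50 after a transcription start, for 7 of the 10 regulators. *E2f4*, *E2f5* and *Foxj1* had no window in the promoter set used. The windows were searched on both strands for GTTGCC, an arm of the X-box that RFX proteins bind, and for E2F-type letters, that is TTCCCGC or TTGGCGC or TTCGCGC or TTGCCGC. The X-box arm was in 5 of the 8 windows and in 12.5% of all 32851 RefSeq promoter windows of that length. An E2F-type match was in 1 of the 8 windows and in 9.57% of all windows. Forkhead letters (GTAAACA or ATAAACA) were in 1 of the 8 windows, that of *Myb*, and in 7.97% of all windows. MYB letters (AACTGCC or AACTGAC or AACGGCC or AACGGAC) were in 2 of the 8, those of *Foxn4* and *Rfx2*, and in 9.27% of all windows. The 8 windows had a GC content of 57.7 to 77.7%, against a median of 52.7% over all windows. These shares were not matched for base composition. A match describes letters only and is not evidence of binding. The neighbours *Mcidas* and *Ccno*, the pair *Rfx2* and *Rfx3*, whose levels differed in opposite directions, and the window of *Trp73* that held E2F-type letters are shown, with X-box arms and E2F-type letters in capitals on either strand.
Mcidas (chr13:112993618-112993917, plus strand): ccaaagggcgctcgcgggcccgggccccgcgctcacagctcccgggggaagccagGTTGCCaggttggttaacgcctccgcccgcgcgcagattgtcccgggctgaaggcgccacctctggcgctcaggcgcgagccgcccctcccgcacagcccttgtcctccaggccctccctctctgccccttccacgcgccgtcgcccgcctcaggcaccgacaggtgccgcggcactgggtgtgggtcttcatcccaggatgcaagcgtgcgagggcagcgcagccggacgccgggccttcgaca
Ccno (chr13:112987552-112987851, plus strand): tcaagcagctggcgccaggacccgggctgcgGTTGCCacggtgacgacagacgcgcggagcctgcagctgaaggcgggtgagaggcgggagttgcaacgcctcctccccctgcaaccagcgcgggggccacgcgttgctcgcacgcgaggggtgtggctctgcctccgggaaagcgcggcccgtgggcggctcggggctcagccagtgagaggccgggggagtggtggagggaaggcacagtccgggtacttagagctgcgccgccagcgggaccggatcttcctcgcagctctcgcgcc
Trp73 (chr4:154139826-154140125, minus strand): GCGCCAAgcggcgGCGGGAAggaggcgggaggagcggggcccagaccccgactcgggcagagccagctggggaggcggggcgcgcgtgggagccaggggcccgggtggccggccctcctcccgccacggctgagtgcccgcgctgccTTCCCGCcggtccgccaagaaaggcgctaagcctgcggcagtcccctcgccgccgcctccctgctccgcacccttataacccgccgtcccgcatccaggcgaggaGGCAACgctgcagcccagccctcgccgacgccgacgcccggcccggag
Rfx2 (chr17:56830959-56831258, minus strand): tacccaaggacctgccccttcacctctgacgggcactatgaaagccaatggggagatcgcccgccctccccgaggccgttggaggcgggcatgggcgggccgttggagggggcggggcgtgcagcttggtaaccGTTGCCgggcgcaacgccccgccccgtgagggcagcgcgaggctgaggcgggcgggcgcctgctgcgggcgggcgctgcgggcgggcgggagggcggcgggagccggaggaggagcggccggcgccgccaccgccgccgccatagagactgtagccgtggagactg
Rfx3 (chr19:28011117-28011416, minus strand): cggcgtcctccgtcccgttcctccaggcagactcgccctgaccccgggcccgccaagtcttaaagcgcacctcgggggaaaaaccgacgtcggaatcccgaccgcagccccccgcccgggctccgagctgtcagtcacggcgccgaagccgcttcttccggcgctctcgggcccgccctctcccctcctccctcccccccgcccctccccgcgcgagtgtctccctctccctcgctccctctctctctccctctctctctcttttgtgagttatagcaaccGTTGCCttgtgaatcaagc

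In these windows the X-box arm began 195 bases upstream of the start of *Mcidas*, 219 bases upstream of that of *Ccno* and 116 bases upstream of that of *Rfx2*. In *Rfx3* it lay 31 bases downstream of the start. *Trp73* had 3 E2F-type matches, 250, 237 and 103 bases upstream, and an X-box arm 2 bases downstream, and these features did not overlap. *Trp73* has a further annotated start with neither of these motifs, and the FPKM of the gene do not separate the transcripts from its starts. The windows of *Foxn4* and *Myb* held neither an X-box arm nor the E2F-type letters searched for. Other variants of the E2F site were not searched.

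Across the 10 regulators, *Foxj1*, *Myb* and *Ccno* fell in Shh-Stk11 lungs and none rose. Of all 13770 tested genes, 1.29% were lower and 0.98% higher at an adjusted p of 0.05 (limma, Benjamini-Hochberg over all tested genes). Both Shh-Stk11 libraries lay below both Controls for 8 of the 10 regulators, beside 27.6% of all tested genes, and above both for 1, *Rfx3*, beside 19.2% of all tested genes. An unadjusted p under 0.05 was reached by 7 of the 10, beside 15.2% of all tested genes. The median log2 fold change of the 10 was -0.98, beside -0.05 for all tested genes. The study named *Mcidas*, *Ccno*, *Myb* and *Foxj1*, as well as *Deup1*, from these same libraries, so their direction is not independent evidence. Beyond these libraries, the study reported relative mRNA levels of airway epithelial genes at this age. By staining, it counted significantly fewer FOXJ1-positive and MYB-positive airway cells in Shh-Stk11 lungs. In whole-lung RNA, fewer cells of a type and less RNA per cell cannot be told apart.

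**Figure D1:**
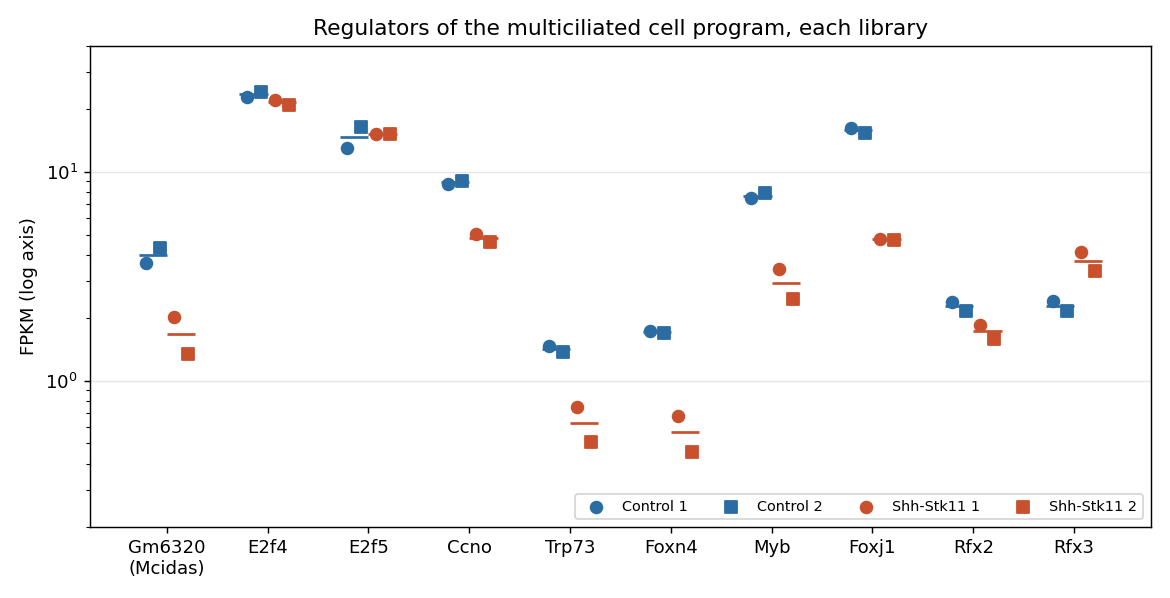
FPKM of each regulator (log axis) in every library, with circles for replicate 1, squares for replicate 2 and short lines at the group means. *Foxj1* shows the widest gap, from 15.8 FPKM in Control to 4.74 FPKM in Shh-Stk11 lungs, *E2f5* overlaps and *Rfx3* is higher in Shh-Stk11 lungs.

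The regulators at the top of the program were taken first. *Gm6320* (*Mcidas*) was at 3.65 and 4.30 FPKM in Control 1 and 2 and at 2.01 and 1.34 FPKM in Shh-Stk11 1 and 2. Each Shh-Stk11 library was thus below each Control, and Shh-Stk11 2 was the lowest. The mean went from 3.98 ± 0.458 to 1.67 ± 0.468 FPKM (SD, n = 2), that is 42.1% of Control. Its log2 fold change was -1.22 (SE 0.235), with a limma adjusted p of 0.0586, just short of the threshold. The study reported *Mcidas* as significantly reduced.

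E2F4 and E2F5, the DNA-binding partners of Multicilin, are also used in many other cells as partners of the pocket proteins. *E2f4* was the most highly expressed of the 10 regulators, at 22.8 and 24.1 FPKM in the Controls and 21.99 and 20.96 FPKM in Shh-Stk11 lungs. These groups did not overlap, but the difference was small, with a log2 fold change of -0.13 (95% interval -0.41 to 0.16, limma adjusted p 0.669). *E2f5* was at 12.98 and 16.4 FPKM in the Controls against 15.2 FPKM in each Shh-Stk11 library, inside the Control range. Its log2 fold change was 0.06 (95% interval -0.30 to 0.42, limma adjusted p 0.891). The sign of *E2f4* turned with the trend on transcript length and GC content removed (0.03), and that of *E2f5* turned without Control 1 (-0.11).

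*Ccno* encodes cyclin O, which is needed for the amplification of centrioles, and lies next to *Mcidas* on the chromosome. It was at 8.74 and 9.04 FPKM in the Controls against 5.04 and 4.63 FPKM in Shh-Stk11 lungs, with no overlap and little spread within a genotype. From a mean of 8.89 ± 0.212 FPKM *Ccno* fell to 4.84 ± 0.294 FPKM (SD, n = 2), with a limma log2 fold change of -0.87 (SE 0.135, adjusted p 0.0335). Its adjusted p in limma was 0.183 without Control 1, 0.186 without Control 2, 0.107 without Shh-Stk11 1 and 0.139 without Shh-Stk11 2, so no set of 3 libraries kept the call. With the length and GC trend removed it was 0.0731. In the RefSeq gene order, *Dhx29* and the pseudogene *Gm8795* come before *Ccno* and *Mcidas*, and *Cdc20b* and the *Mir449* genes come after them. *Gm8795* and *Cdc20b* were not analysed here. *Mir449c*, whose hairpin is far shorter than the transcripts that FPKM are meant for, had 56.8 and 45.7 FPKM in Control 1 and 2, was at 0 in Shh-Stk11 1 and had 43.4 FPKM in Shh-Stk11 2 (limma adjusted p 0.445). *Dhx29*, an RNA helicase gene, was at 8.23 and 7.26 FPKM in the Controls against 8.73 and 7.88 FPKM in Shh-Stk11 lungs. *Gpx8* comes after these and was picked once its values were known. It was at 90.5 and 113 FPKM in the Controls and 93.4 and 94.0 FPKM in Shh-Stk11 lungs. Both genes overlapped between the genotypes.

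The transcription factors between Multicilin and FOXJ1 came next. *Trp73* encodes p73, a relative of p53 that activates genes of multiciliogenesis, among them *Foxj1*. It was at 1.47 and 1.37 FPKM in the Controls against 0.744 and 0.508 FPKM in Shh-Stk11 lungs. The genotypes did not overlap, but the log2 fold change of -1.08 (SE 0.283) was short of significance (limma adjusted p 0.122). *Foxn4*, a forkhead gene that acts beside *Foxj1* in multiciliated cells of other vertebrates, was at 1.72 and 1.68 FPKM in the Controls against 0.679 and 0.457 FPKM in Shh-Stk11 lungs. This was 33.4% of Control, with a log2 fold change of -1.45 (SE 0.279) and a limma adjusted p of 0.0586. About 55.1 and 39.9 estimated reads stood behind its Shh-Stk11 values, and 171.7 and 139.6 behind its Control values. With a pseudocount of 1 the log2 fold change was -0.79 and passed the threshold (limma adjusted p 0.0472), as it did with a variance prior without a trend (0.0358).

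*Myb* encodes a transcription factor of early multiciliated cells, which also drives blood progenitors. It was at 7.45 and 7.91 FPKM in the Controls against 3.42 and 2.46 FPKM in Shh-Stk11 lungs. The genotypes did not overlap, and Shh-Stk11 2 was the lowest library. From a mean of 7.68 ± 0.323 FPKM *Myb* fell to 2.94 ± 0.676 FPKM (SD, n = 2), with a limma log2 fold change of -1.37 (SE 0.191, adjusted p 0.0249). Its adjusted p in limma was 0.162 without Control 1, 0.167 without Control 2, 0.0662 without Shh-Stk11 2 and 0.0548 after removal of the trend on length and GC content, whereas it was 0.0208 without Shh-Stk11 1. All 8 tested markers of red blood cells and their progenitors had a log2 fold change below 0, with a median of -0.54, and 1 of them, the embryonic globin gene *Hba-x*, fell (limma adjusted p 0.0158, but 0.144 without Control 1 and 0.146 without Control 2). The summed level of the 11 markers in the table was 3743 and 3881 FPKM in the Controls and 2506 and 2783 FPKM in Shh-Stk11 lungs. Of the 8, 5 had an unadjusted p under 0.05 and 1 fell, beside 15.2% and 1.29% of all tested genes. *Kit*, a gene of blood progenitors, was at 22.7 and 15.9 FPKM in the Controls against 14.2 and 13.8 FPKM in Shh-Stk11 lungs (limma adjusted p 0.325). *Alas2*, which encodes the first enzyme of heme synthesis in red cells, was at 112 and 111 FPKM in the Controls against 74.6 and 75.6 FPKM in Shh-Stk11 lungs (limma adjusted p 0.0748), and *Gata1* was at most 0.459 FPKM in any library. The part of blood cells in the level of *Myb* was not tested.

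FOXJ1 and the RFX factors act directly on the genes of the axoneme. *Foxj1* was at 16.1 and 15.4 FPKM in the Controls against 4.76 and 4.71 FPKM in Shh-Stk11 lungs. It had the largest fold change of the 10 and the smallest difference between the Shh-Stk11 replicates relative to its level among the regulators that fell. The mean fell from 15.8 ± 0.522 to 4.74 ± 0.0357 FPKM (SD, n = 2), that is to 30.1% of Control (log2 fold change -1.71, 95% interval -2.01 to -1.41). Its limma adjusted p of 0.00329 belonged to the gene at place 19 by p among all tested genes. It was 0.0563 without Control 1 and 0.0612 without Control 2, and it stayed below the threshold without Shh-Stk11 1 (0.0114) and without Shh-Stk11 2 (0.0150).

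*Rfx2* and *Rfx3* encode related factors that bind the X-box, *Rfx2* with a known part in motile cilia and *Rfx3* in both motile and primary cilia. *Rfx2* was at 2.38 and 2.16 FPKM in the Controls against 1.85 and 1.58 FPKM in Shh-Stk11 lungs. Both Shh-Stk11 values were lower, but the log2 fold change of -0.38 (95% interval -0.86 to 0.09) was not significant (limma adjusted p 0.432). *Rfx3* was at 2.40 and 2.15 FPKM in the Controls against 4.13 and 3.35 FPKM in Shh-Stk11 lungs. It was the regulator with the highest fold change, at 1.65 times the Control level, although it too was short of the threshold (log2 fold change 0.69, 95% interval 0.24 to 1.14, limma adjusted p 0.134). With the length and GC trend removed the log2 fold change of *Rfx3* was 0.28 (limma adjusted p 0.437).

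**Figure D2:**
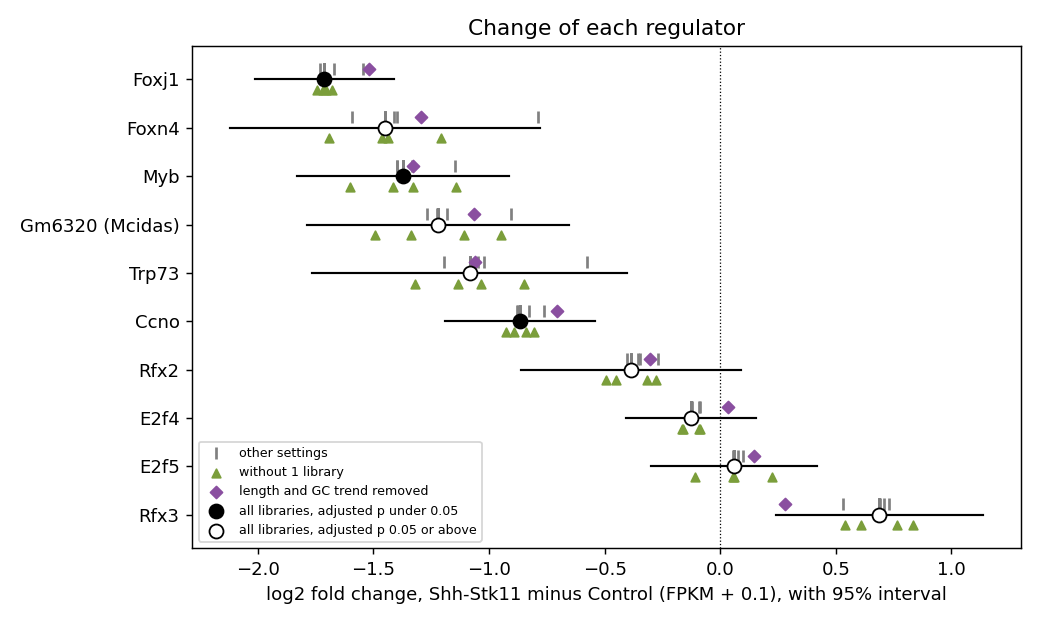
Log2 fold change of each regulator, Shh-Stk11 minus Control, with its 95% interval in limma (n = 2 libraries each) as a line, filled circles for an adjusted p under 0.05 and open circles otherwise. Triangles leave out 1 library, diamonds have the length and GC trend removed and ticks are the other settings. *Foxj1* stays between -1.75 and -1.52, and *Rfx3* moves from 0.69 to 0.28 at its diamond.

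Transcript length and GC content moved with the change of *Rfx3*. The longest annotated transcript of *Rfx3* has 9146 bases and a GC content of 40.2%, which put it in the group with the longest transcripts and in that with the lowest GC content when tested genes were divided into 10 equal groups. The median log2 fold change of all genes was 0.19 in that length group and 0.20 in that GC group. *Foxj1*, with 2623 bases and a GC content of 61.4%, was in the group with the highest GC content, where the median was -0.16. The other 7 regulators that were lower lay in length groups with medians between -0.12 and 0.01 and in GC groups with medians between -0.16 and -0.01. The part of length and GC content in the level of *Rfx3* was not tested beyond the removal of the trend.

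**Figure D3:**
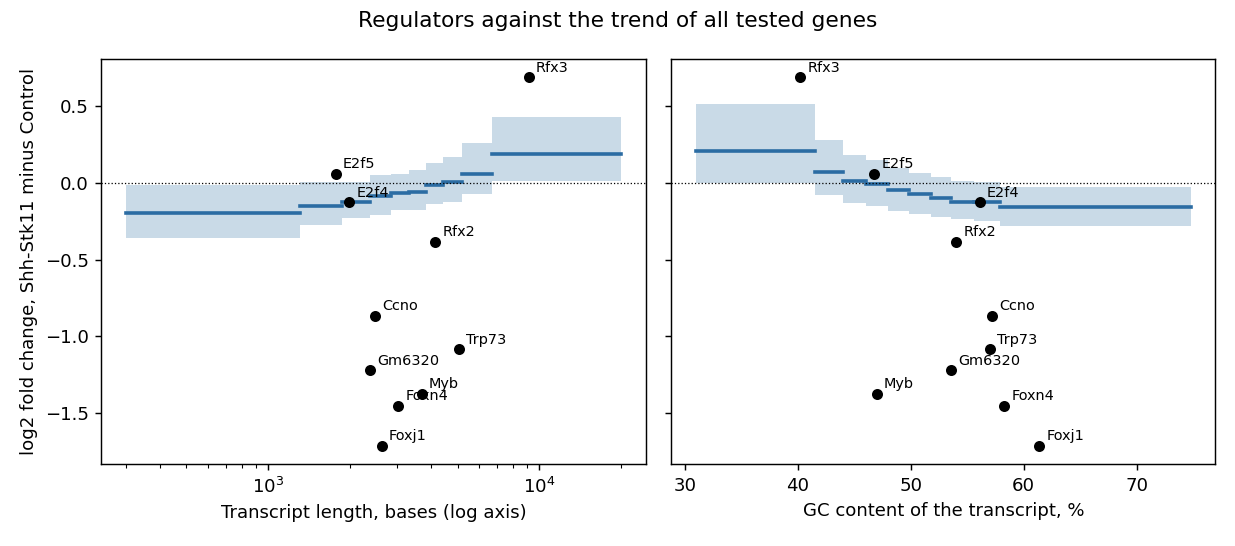
Log2 fold change, Shh-Stk11 minus Control, against transcript length (log axis, cut at either end) and GC content. Blue bars are the medians and shaded boxes the middle 50% of all tested genes in 10 groups of equal size, and points are the regulators. *Rfx3*, at 0.69, lies above the box of its groups, and *Foxj1*, at -1.71, lies below that of its groups.

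The replicates of Shh-Stk11 did not differ equally for all regulators. On the log2(FPKM + 0.1) scale, Shh-Stk11 2 minus Shh-Stk11 1 was -0.54 for *Gm6320*, -0.49 for *Foxn4*, -0.47 for *Trp73* and -0.46 for *Myb*. The same difference was -0.12 for *Ccno* and -0.02 for *Foxj1*. Between the Controls, the same difference lay between -0.16 and 0.33 over the 10 regulators, and it was highest for *E2f5*. The median absolute difference over all tested genes was 0.16 between the Shh-Stk11 and 0.18 between the Control replicates. With 1 pair of replicates, these differences were not tested.

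Ratios of regulators within a library, which do not depend on scaling between libraries, showed whether a pair changed by unequal amounts. In all, 8 ratios were compared, and 2 libraries against 2 cannot give an exact two-sided permutation p below 0.333, so no ratio could pass a threshold. *Rfx2* and *Rfx3* were at nearly equal levels in the Controls, with ratios of 0.992 and 1.01, and the ratio was 0.449 and 0.473 in Shh-Stk11 lungs. This is a difference of -1.12 on the log2 scale, with SDs of 0.016 and 0.054 (n = 2; exact permutation p 0.333, 0.381 adjusted over 8 ratios). It stayed between -1.16 and -1.08 when any 1 library was left out. With the length and GC trend removed the 2 genes lay closer together, with log2 fold changes of -0.30 for *Rfx2* and 0.28 for *Rfx3*.

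*Foxj1* stood at 6.77 and 7.12 times the level of *Rfx2* in the Controls and at 2.57 and 2.97 times in Shh-Stk11 lungs, a log2 difference of -1.33. *Gm6320* was at 0.160 and 0.179 times the level of *E2f4* in the Controls and at 0.0912 and 0.0641 times in Shh-Stk11 lungs, a log2 difference of -1.14. In both of these ratios the distance between the genotypes exceeded the distance between replicates (exact permutation p 0.333 each, n = 2 per genotype).

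Other ratios moved less. *Foxj1* was at 4.42 and 3.58 times the level of *Gm6320* in the Controls and at 2.38 and 3.51 times in Shh-Stk11 lungs, so that the nearest values almost met. The ratio of *Foxj1* to *Myb* was 2.17 and 1.95 in the Controls and 1.39 and 1.91 in Shh-Stk11 lungs, again with near contact. *Gm6320* to *Ccno* gave 0.418 and 0.476 against 0.398 and 0.290, and *E2f4* to *E2f5* gave 1.76 and 1.47 against 1.45 and 1.38. *Trp73* to *Gm6320* overlapped, with 0.403 and 0.318 in the Controls and 0.371 and 0.378 in Shh-Stk11 lungs (exact permutation p 1, n = 2 per genotype).

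**Figure D4:**
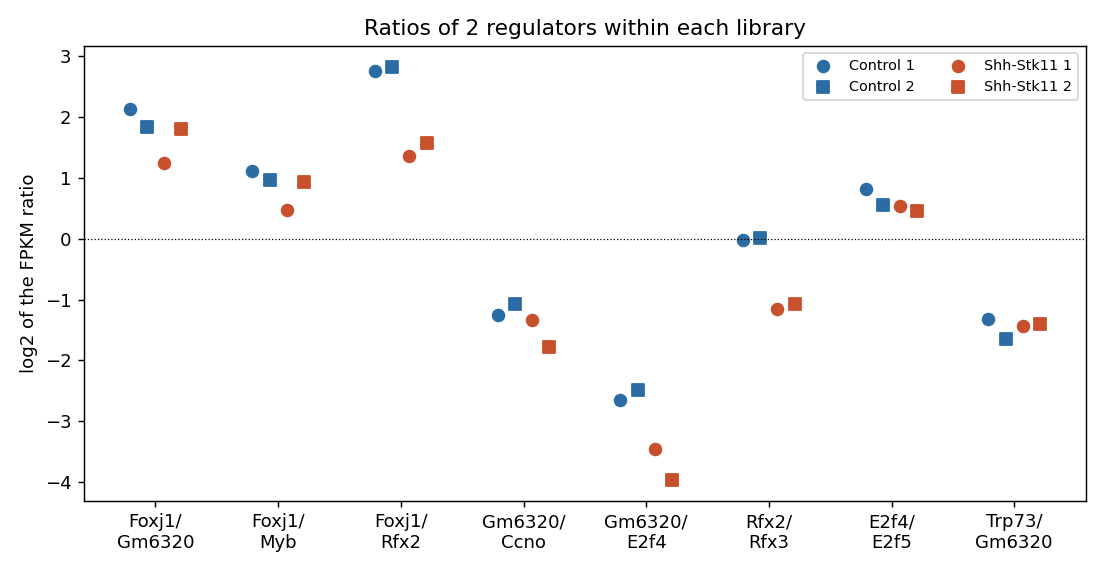
Log2 of the FPKM ratio of 2 regulators in each library, with blue for Control, orange for Shh-Stk11, circles for replicate 1 and squares for replicate 2. The ratio of *Rfx2* to *Rfx3* sits at -0.01 and 0.01 in the Controls and at -1.16 and -1.08 in Shh-Stk11 libraries, whereas that of *Trp73* to *Gm6320* overlaps.

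The tested genes whose values over the 4 libraries were most like those of 2 of the regulators were then listed, by the Euclidean distance between log2 profiles centred on their means. Genes nearest to *Foxj1* were *2410004P03Rik* (distance 0.031), *Fsip1* (0.0671), *1700007K13Rik* (0.0781), *2610028H24Rik* (0.0787) and *Spag6* (0.0981), the last of which encodes a protein of the central pair of the axoneme. *2410004P03Rik* was at 5.11 and 4.75 FPKM in the Controls against 1.47 and 1.43 FPKM in Shh-Stk11 lungs. Genes nearest to *Gm6320* were *2010015L04Rik* (0.0759), *4932425I24Rik* (0.0878), *Eno4* (0.105), *4930451C15Rik* (0.125) and *E030019B06Rik* (0.169). *Eno4*, which encodes an enolase, was at 1.21 and 1.34 FPKM in the Controls against 0.645 and 0.420 FPKM in Shh-Stk11 lungs. Among the regulators themselves, *Myb* was nearest to *Gm6320* (0.192), followed by *Trp73* (0.275) and *Foxn4* (0.296), and *Foxn4* was nearest to *Foxj1* (0.424). With 4 libraries, such distances describe the profiles and test nothing.

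The other genes of the program were set beside the regulators. Of the 34 tested genes that FOXJ1 and RFX factors are known to drive in the axoneme, 23 fell and none rose. At the same threshold 1.29% of all tested genes fell and 0.98% rose. The median log2 fold change of the 34 was -1.45. *Ccdc113* fell from 11.7 ± 0.364 to 2.84 ± 0.0577 FPKM, *Tekt2*, a tektin gene of the ciliary microtubules, from 8.08 ± 0.826 to 1.96 ± 0.137 FPKM, and *Dnali1*, a dynein light chain gene, from 10.6 ± 0.824 to 2.68 ± 0.0825 FPKM (SD, n = 2 each). The limma adjusted p was 0.00329 for *Ccdc113* and *Dnali1* and 0.00429 for *Tekt2*. The summed level of the 37 genes in the table was 307 and 323 FPKM in the Controls and 128 and 134 FPKM in Shh-Stk11 lungs. Of the 34, 3 passed without Control 1, 1 without Control 2, 17 without Shh-Stk11 1 and 18 without Shh-Stk11 2, and their median lay between -1.59 and -1.36 in these fits. The adjusted p of the 3 named genes was then 0.0530 to 0.0704 without Control 1 and 0.0583 to 0.0698 without Control 2. With no filter on low values none of the 34 passed.

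Of 13 tested genes of centriole amplification, 2 fell (1.29% of all tested genes did) and none rose. Their median log2 fold change was 0.13. An unadjusted p under 0.05 was found for 4 of the 13, beside 15.2% of all tested genes. The 2 were *Ccdc67*, the older symbol of *Deup1*, whose product builds the deuterosome on which centrioles form in multiciliated cells, and *Ccdc78*, another gene of this structure. *Ccdc67* was at 6.92 and 8.89 FPKM in the Controls against 3.02 and 2.76 FPKM in Shh-Stk11 lungs (log2 difference -1.41, SE 0.175, limma adjusted p 0.0160). *Ccdc78* was at 3.05 and 3.20 FPKM in the Controls against 0.852 and 0.978 FPKM in Shh-Stk11 lungs (log2 difference -1.67, SE 0.203, limma adjusted p 0.0151). Without Control 1 the adjusted p in limma was 0.0882 for *Ccdc67* and 0.120 for *Ccdc78*, and without Control 2 it was 0.145 and 0.134. *Ccdc67* was also short of the threshold without Shh-Stk11 2 (0.0610). *Plk4*, the kinase that starts centriole duplication in all dividing cells, was at 13.03 and 17.1 FPKM in the Controls against 16.5 and 14.1 FPKM in Shh-Stk11 lungs, with overlap. *Cep152*, which recruits it, had a log2 fold change of 0.13 (95% interval -0.40 to 0.66). *Cenpj* and *Cep135*, which encode centriole assembly proteins and were picked with their values known, had both Shh-Stk11 libraries above both Controls but were short of the threshold. *Cenpj* was at 1.70 and 2.24 FPKM in the Controls against 3.67 and 2.79 FPKM in Shh-Stk11 lungs (log2 difference 0.68, limma adjusted p 0.212). *Cep135* was at 3.06 and 3.97 FPKM in the Controls against 5.22 and 4.87 FPKM in Shh-Stk11 lungs (log2 difference 0.52, limma adjusted p 0.233). The median of the list turned to -0.07 without Control 1.

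**Figure D5:**
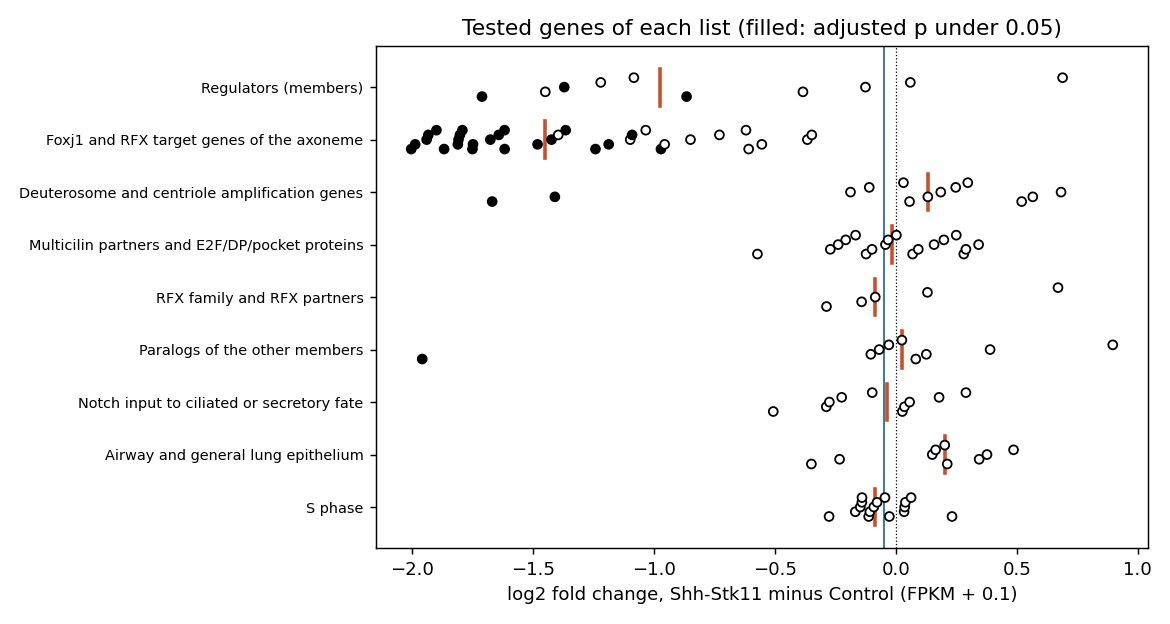
Log2 fold change, Shh-Stk11 minus Control, of the tested genes of each list, filled where the adjusted p was under 0.05, with orange bars at list medians and a blue line at the median of all tested genes (-0.05). The axoneme genes lie below 0 throughout, and 2 of the centriole genes stand apart from the other 11.

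Partners of Multicilin and E2F did not pass the threshold in either direction (0 of 18 in limma). An unadjusted p under 0.05 was found for 1 of them, beside 15.2% of all tested genes. This was *Rb1*, at 6.24 and 6.37 FPKM in the Controls against 8.06 and 7.97 FPKM in Shh-Stk11 lungs (limma adjusted p 0.275). Of the 18, 9 had a log2 fold change below 0 and 9 above 0. Their median was -0.02, or between -0.21 and 0.13 when 1 library was left out. *Gm606*, the older symbol of *Gmnc*, which acts upstream of *Mcidas* as a relative of geminin, was at 0.507 and 0.758 FPKM in the Controls against 0.376 and 0.395 FPKM in Shh-Stk11 lungs. Both Shh-Stk11 values were lower, with a log2 fold change of -0.57 (95% interval -1.43 to 0.28, limma adjusted p 0.512). *Gmnn*, the geminin gene, overlapped between the genotypes (log2 fold change -0.12), as did *Tfdp1*, the gene of the DP partner (-0.03), and each had its highest value in Control 2.

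The other tested RFX genes (*Rfx1*, *Rfx5* and *Rfx7*) and the genes of the RFX partners *Rfxap* and *Rfxank* did not pass the threshold either (0 of 5 in limma). An unadjusted p under 0.05 was found for 1 of them, beside 15.2% of all tested genes. *Rfx1* was at 6.07 and 6.29 FPKM in the Controls against 6.14 and 5.09 FPKM in Shh-Stk11 lungs. *Rfx4* was at most 0.0392 FPKM in any library, *Rfx6* was listed at 0 in all 4, and neither was tested. *Rfx7*, likewise picked with its values known, was at 4.32 and 4.73 FPKM in the Controls against 8.17 and 6.44 FPKM in Shh-Stk11 lungs. Its log2 fold change of 0.67 (limma adjusted p 0.111) was close to that of *Rfx3*, and removal of the trend on length and GC content left 0.42.

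Among 9 tested paralogs of the other regulators, 1 fell (1.29% of all tested genes did) and none rose. An unadjusted p under 0.05 was found for 2 of the 9, beside 15.2% of all tested genes. The gene that fell was *Ccna1*, which encodes cyclin A1, at 8.53 and 9.85 FPKM in the Controls against 2.45 and 2.12 FPKM in Shh-Stk11 lungs. It was at 24.9% of Control (log2 fold change -1.96, SE 0.162, limma adjusted p 0.00441). Its log2 fold change stayed between -2.06 and -1.63 over 15 alternatives, and its adjusted p in limma was 0.0580 without Control 1 and 0.0778 without Control 2. *Trp53* was at 38.3 and 40.9 FPKM in the Controls against 43.5 and 37.3 FPKM in Shh-Stk11 lungs, with overlap.

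Genes that mark the epithelium as a whole were not lower as a group, and the median over 9 tested genes was 0.20 in log2, of which 0 passed the threshold in limma and 2 had an unadjusted p under 0.05 (15.2% of all tested genes did). *Epcam* was at 95.5 and 119 FPKM in the Controls against 119 and 120 FPKM in Shh-Stk11 lungs. *Cdh1*, the E-cadherin gene, was at 130 and 105 FPKM in the Controls against 165 and 162 FPKM in Shh-Stk11 lungs (log2 difference 0.49, limma adjusted p 0.184). *Nkx2-1* was at 170 and 178 FPKM in the Controls against 207 and 196 FPKM in Shh-Stk11 lungs (log2 difference 0.21, limma adjusted p 0.520). *Sox2*, the gene of airway progenitors, was at 4.29 and 3.68 FPKM in the Controls against 3.14 and 3.06 FPKM in Shh-Stk11 lungs (log2 difference -0.35, limma adjusted p 0.388). Notch pathway genes, which set the choice between ciliated and secretory fate, gave 0 calls among 10 tested in limma (1 at an unadjusted p under 0.05) and a median of -0.04, which ran from -0.19 without Control 2 to 0.15 without Shh-Stk11 2. S-phase genes gave 0 calls among 16 in limma (0 at an unadjusted p under 0.05) and a median of -0.09. That median had no stable sign, since it was -0.35 without Control 1 and -0.25 without Shh-Stk11 1, with all 16 genes below 0 in each, but 0.19 without Control 2, with all 16 above 0, and 0.09 without Shh-Stk11 2.

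Markers of other cell types were examined in the same way. Median log2 fold changes were -0.76 for 5 club cell genes, 0.40 for 4 neuroendocrine genes, -0.34 for 6 endothelial genes, -0.15 for 7 mesenchymal genes, 0.03 for 5 immune genes and -0.86 for 5 heart muscle genes. When 1 library was left out, the heart muscle median was -1.54 without Shh-Stk11 1, -1.37 without Control 1, -0.41 without Control 2 and -0.18 without Shh-Stk11 2. The neuroendocrine median ran from 0.12 (without Control 1) to 0.68 (without Control 2), and the endothelial median from -0.20 (without Control 1) to -0.45 (without Control 2). Without Shh-Stk11 1 the mesenchymal median was -0.32 and the immune median 0.30, and without Shh-Stk11 2 they were -0.07 and -0.05. In the club cell list 3 genes fell, *Scgb3a2*, *Upk3a* and *Cckar*, beside 1.29% of all tested genes. The club cell secretory gene *Scgb1a1* was instead at 221 and 102 FPKM in the Controls against 312 and 471 FPKM in Shh-Stk11 lungs (limma adjusted p 0.144). Of the 5 club cell genes, 0 passed without Control 1 or without Control 2, 2 without Shh-Stk11 1 and 1 without Shh-Stk11 2. With quantile normalization, scaling by the median ratio, a variance prior without a trend or the length and GC trend taken out, 1 passed in each, and with no filter 0. In the other 5 lists none passed the threshold in limma, with 2 of 4 neuroendocrine, 2 of 6 endothelial, 2 of 7 mesenchymal, 1 of 5 immune and 0 of 5 heart muscle genes at an unadjusted p under 0.05, beside 15.2% of all tested genes. The same count was 4 of 5 for club cell genes and 31 of 34 for the axoneme genes. The club cell list summed to 874 and 875 FPKM in the Controls and to 678 and 741 FPKM in Shh-Stk11 lungs. The T cell gene *Cd3e* was listed at 0 in all libraries but Shh-Stk11 2, and the neuroendocrine genes *Chga*, *Chgb* and *Insm1* were at most 0.251 FPKM in any library. *Calca*, another neuroendocrine gene, was at 6.09 and 9.22 FPKM in the Controls against 17.2 and 15.5 FPKM in Shh-Stk11 lungs (limma adjusted p 0.0532), and *Resp18* had a log2 fold change of 1.01 (limma adjusted p 0.306). With a pseudocount of 0.01 or a minimum of 5 FPKM, 1 neuroendocrine gene passed as higher. The part of these cells in the levels of the regulators was not tested.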

How the data were processed

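Whole-lung RNA was sequenced in 4 libraries, and the number of embryos behind each is not stated. The authors deposited FPKM per gene and library. The submitters' processing notes name TopHat2 2.0.13, Cufflinks 2.2.1 and the builds GRCm38 and mm9, whose roles are not given in the sources used here, and the promoter coordinates are those of RefSeq, not of the deposited files. FPKM are not counts, so log2(FPKM + 0.1) of the 13770 genes that averaged 0.5 FPKM or more was fitted with limma 3.58.1 in R 4.3.3 (both genotypes, no covariate, empirical Bayes with a trend, 2 residual and 4.48 prior degrees of freedom, Benjamini-Hochberg, two-sided), as tested on simulated data. Nothing in the labels says whether the embryos shared a litter, so p-values measure the spread between these libraries. Read numbers were estimated from whole-read steps in low FPKM, found for 49.5% of 1806 low genes within a tolerance of 0.02, and no count test was run on them. Length and GC content came from GENCODE transcripts. Alternatives were other pseudocounts, filters, scalings and variance priors, a replicate block, removal of the length and GC trend, and leaving out each library. The regulators and gene lists were chosen with earlier results of these data known. All regulators were named. Of each other list, genes past the threshold were named (the 3 with the largest change where more than 4 passed), or else some of the first 4 in list order. In some lists no gene was named. Genes nearest in profile and on the chromosome and *Stk11* were named too. Other list genes that are named, such as *Kit*, *Alas2*, *Gata1*, *Resp18*, *Cd3e* and *Insm1*, fall outside this rule, and their values were known.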

Additional observations from a re-analysis of the deposited data

How the results depend on the processing

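The directions of 8 of the 10 regulators held in every fit run. The exceptions were *E2f4*, at 0.035 with the length and GC trend removed, and *E2f5*, at -0.11 without Control 1, and the cause was not tested. The genes that passed numbered 313 (178 lower, 135 higher), 200 at a minimum of 5 FPKM, 1 with no filter, 186 with the length and GC trend removed and 38 to 191 without 1 library. Of the regulators 3 passed, 0 with no filter, 1 with that trend removed and 0 to 2 without 1 library. Their median of -0.98 was -0.67 with a pseudocount of 1 and -1.12 to -0.83 without 1 library.

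With no filter the log2 fold change and adjusted p in limma were -0.87 and 0.197 for *Ccno*, -1.71 and 0.0889 for *Foxj1* and -1.37 and 0.293 for *Myb*. With the length and GC trend removed they were -0.70 and 0.0731 for *Ccno* and -1.33 and 0.0548 for *Myb*. Without 1 library the log2 fold change ran from -0.93 to -0.81 for *Ccno*, from -1.75 to -1.68 for *Foxj1* and from -1.60 to -1.14 for *Myb*, and from -0.11 to 0.23 for *E2f5*. *Foxn4* passed at -1.45 without the variance trend and at -0.79 with a pseudocount of 1, and *Gm6320* at -1.27 with a pseudocount of 0.01. The ratio of *Trp73* to *Gm6320* ran from -0.11 (without Control 2) to 0.24. At a minimum of 5 FPKM, *Gm6320*, *Trp73*, *Foxn4*, *Rfx2* and *Rfx3* had no value.

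Deviations of same-numbered libraries had r = -0.114 across 13770 genes, which are not independent. Only 1 pair of libraries per genotype was available, so this cannot show whether equal replicate numbers pair the libraries. A replicate block leaves fewer residual degrees of freedom than the 2 of the main fit. With this block 13 genes and 0 regulators passed, with *Ccno* at -0.87 (limma adjusted p 0.147), *Foxj1* at -1.71 (0.0505) and *Myb* at -1.37 (0.117). With the block on crossed pairs, chosen after seeing the data, 675 genes and 5 regulators passed, the latter with *Foxn4* (-1.45) and *Gm6320* (-1.22).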
